A study of Mus musculus with 4 samples.

Results

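Fhl1, Fhl2 and Pdlim5, genes of LIM proteins that sit at the sarcomere of heart muscle, were followed clone by clone in ventricles of mice on high salt against mice on low salt. They were taken as all clones on the printed arrays whose only annotated gene symbol is one of the 3. This gave 4 clones of 16471, or 3 genes of 8106: feature 3759 for Fhl1 (gene ID 14199), feature 6726 for Fhl2 (gene ID 14200), and features 712 and 13856 for Pdlim5 (gene ID 56376). The 3 genes were selected on the same log ratios that are reported here, with earlier results of this table in view. Their salt values are therefore a description without a test, and nothing is supported with them.

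All mice were wild-type males with the 1-renin genotype named in the labels, from backcross generation N5–6 on 129Ola/C57BL/6J, and were 12 to 13 weeks old. Every mouse, in both groups, had lost 1 kidney, received deoxycorticosterone acetate (DOCA), a sodium-retaining mineralocorticoid, for 5 weeks, and was fed a diet holding 0.5 mg of sodium per g. Drinking water held 1% NaCl in the high-salt group and was plain tap water in the low-salt group, so the comparison is of salt under DOCA, and no mouse without DOCA was included. RNA came from both ventricles and the septum. Heart weights were 120 to 131 mg in high salt and 107 to 109 mg in low salt (n = 3 mice each). Body weights were 25.5 to 26.8 g in high salt and 26.4 to 26.9 g in low salt.

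A LIM domain is a tandem zinc finger that binds other proteins rather than DNA. Fhl1 and Fhl2 consist almost wholly of LIM domains and bind the elastic region of titin, the giant spring of the sarcomere. Pdlim5, also called ENH, carries a PDZ domain that binds alpha-actinin at the Z-disc and LIM domains that bind protein kinase C isoforms. In mice Fhl1 is required for part of the growth response of the heart to pressure load, and Fhl2 restrains growth signalling through calcineurin and extracellular signal-regulated kinase.

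Of 6 windows around annotated transcription start sites of the 3 genes, the 3 that held a CArG box are printed here to show that motif in its surroundings. The other Fhl1 window and both Pdlim5 windows held none and are not printed. Each window runs from 250 bases before to 50 bases after an annotated start, 5′ to 3′ in the gene's direction, taken from RefSeq on GRCm38.p6. Capitals mark matches to the CArG box, the site of serum response factor, and, nearest the start in the second Fhl2 window, a match to the MEF2 motif.
Fhl2, chr1:43163912-43164211, minus strand: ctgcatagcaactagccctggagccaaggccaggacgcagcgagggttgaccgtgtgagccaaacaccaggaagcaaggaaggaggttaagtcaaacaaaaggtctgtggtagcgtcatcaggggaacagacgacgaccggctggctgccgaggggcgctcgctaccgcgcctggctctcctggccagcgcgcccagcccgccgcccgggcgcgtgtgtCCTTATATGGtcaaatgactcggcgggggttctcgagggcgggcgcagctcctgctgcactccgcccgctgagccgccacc
Fhl2, chr1:43196712-43197011, minus strand: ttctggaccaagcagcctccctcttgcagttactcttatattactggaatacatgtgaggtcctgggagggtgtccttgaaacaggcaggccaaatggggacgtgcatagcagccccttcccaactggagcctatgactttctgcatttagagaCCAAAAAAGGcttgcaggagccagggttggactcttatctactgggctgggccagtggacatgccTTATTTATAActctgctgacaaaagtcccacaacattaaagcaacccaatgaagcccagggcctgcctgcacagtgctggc
Fhl1, chrX:56779433-56779732, plus strand: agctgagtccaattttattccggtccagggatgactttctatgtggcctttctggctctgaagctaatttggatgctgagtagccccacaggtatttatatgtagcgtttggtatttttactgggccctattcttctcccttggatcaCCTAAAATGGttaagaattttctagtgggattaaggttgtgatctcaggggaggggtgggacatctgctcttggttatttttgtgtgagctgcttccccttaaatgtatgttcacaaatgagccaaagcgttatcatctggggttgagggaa

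The CArG box was searched as CC, then 6 letters each A or T, then GG, on both strands, and was added to the search after the Fhl2 sequences had been seen. Of the 6 windows of these genes 3 held a match: both windows of Fhl2, 1 of the 2 windows of Fhl1 (the one without lies at chrX:56786277-56786576) and neither window of Pdlim5. A match was held by 1.63% of all 32851 RefSeq windows of this length. Because the motif was chosen after some of the 6 windows had been seen, nothing is read from this contrast. In the Fhl2 windows the match lay from base -31 to base -22 and from -96 to -87 relative to the start site, and in the Fhl1 window from -102 to -93. Each match is found on both strands, because the pattern is symmetric. MEF2, a motif of muscle transcription factors searched on both strands, was found in the second Fhl2 window alone, from -31 to -22, and in 3.19% of all windows. CATTCC, the core of the M-CAT element bound by TEAD factors, was in none of the 6 windows on either strand, and in 14.7% of all windows. These matches are letters in a window and were not tied to the salt values.

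Expression values are log ratios, read here as log2 of high over low salt. Each array compared 1 high-salt with 1 low-salt heart. The 4 arrays covered 3 pairs of animals, and arrays 2 and 4 held the same pair 2 with the dyes exchanged. The high-salt RNA carried Cy3 on arrays 1 and 2 and Cy5 on arrays 3 and 4. The sources used here do not settle the logarithm base or whether the swapped arrays had been turned. Base 2 was assumed, and positive was read as higher in high salt from the wording of the array titles, a likely but unsettled direction. Across the 16471 clones the arrays with Cy5 on high salt correlated at r = 0.43 with each other and those with Cy3 at r = 0.57, while arrays of opposite orientation correlated between -0.37 and -0.07. Over all features with values, including the recurring unnamed positions left out here, the same correlations were 0.53, 0.69 and between -0.61 and -0.34, with -0.41 for arrays 2 and 4 of the same mice. Clones share arrays and dyes, so these are descriptions. Over the clones, arrays 1 and 3 at -0.345 and arrays 2 and 3 at -0.37 lay below -0.3. Arrays 1 and 4 stood at -0.08, and arrays 2 and 4, of the same mice, at -0.07. Because of the values below -0.3, arrays 1 and 2 were also turned in sign. Means of the 3 genes, of the other muscle LIM genes and the list medians printed here are given both ways. Single-array values and the nearest genes are given as deposited. Turning arrays 3 and 4 in their place would give the same sizes with the opposite sign.

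Fhl2, which docks metabolic enzymes and signalling proteins at the sarcomere, had the highest ratio of the 3 genes as deposited, and the lowest with arrays 1 and 2 turned. Feature 6726 stood at 1.06 on array 1, 0.63 on array 2, 0.36 on array 3 and 0.59 on array 4. It was above 0 on all 4 arrays, highest in pair 1 and lowest in pair 3. Its mean was 0.68 ± 0.36 (SD, n = 3 pairs), a fold of 1.60 if the base is 2. Of all clones 99.4% had a lower mean, and 13.9% with arrays 1 and 2 turned. On the single arrays 93.0% to 97.7% of clones lay below it, so its place among the clones was similar on each array.

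As deposited, pair 2 gave nearly the same Fhl2 value with either dye, while with array 2 turned its arrays would have opposite signs. Array 4 exceeded array 2 by -0.05, and 13.7% of clones had a smaller gap; the median size over all clones was 0.20. The 2 arrays with Cy5 on high salt averaged 0.47 and the 2 with Cy3 averaged 0.85, a difference of -0.38 that includes the difference between pairs 1 and 3. The Fhl2 mean became -0.24 ± 0.73 with arrays 1 and 2 turned, so the size and the sign of its ratio both rest on the reading of the table.

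Fhl1, the X-linked member that links titin to mitogen-activated protein kinases, had a lower ratio as deposited, with a smaller SD. Feature 3759 stood at 0.17, 0.50, 0.39 and 0.53 on arrays 1 to 4. All 4 values were above 0, with pair 1 the lowest, the pair in which Fhl2 was the highest. The mean was 0.36 ± 0.17 (SD, n = 3 pairs), a fold of 1.28 if the base is 2, and 96.8% of clones had a lower mean (75.0% with arrays 1 and 2 turned). Its place varied between arrays, with 78.6% of clones below it on array 1, 91.1% on array 2, 94.4% on array 3 and 96.95% on array 4.

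As deposited, the dye exchange moved Fhl1 little, while with array 2 turned the arrays of pair 2 would have opposite signs. Array 4 exceeded array 2 by 0.03 in pair 2, and 9.48% of clones had a smaller gap. The arrays with Cy5 on high salt averaged 0.46 and those with Cy3 averaged 0.34. The Fhl1 mean was 0.08 ± 0.29 with arrays 1 and 2 turned.

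**Figure D1:**
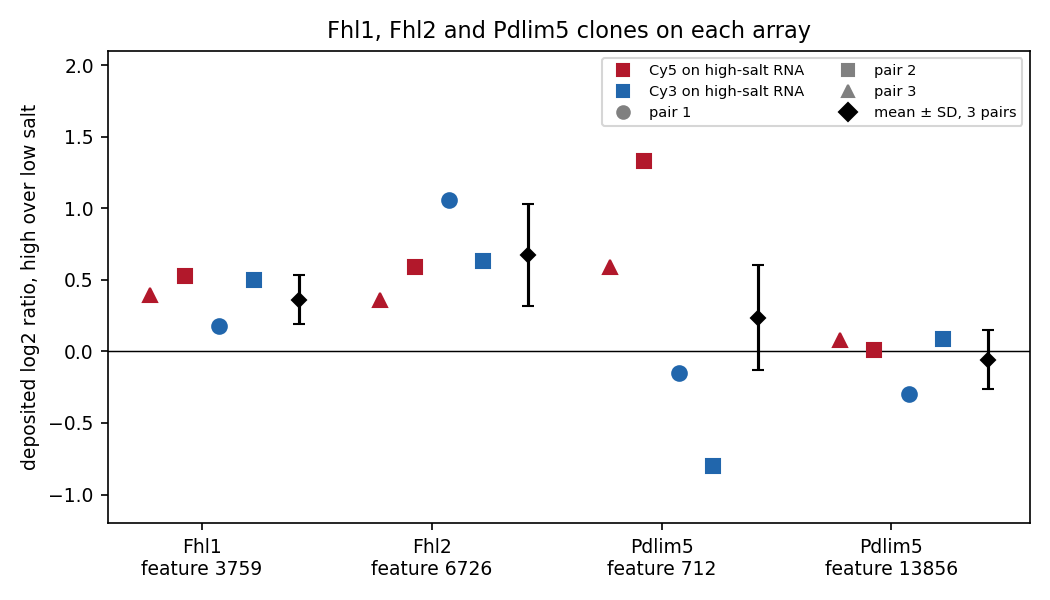
Deposited log2 ratio (vertical axis, read as high over low salt) of the 4 clones on each array, with colour for the dye on high-salt RNA and shape for the animal pair; diamonds with bars are the mean ± SD of 3 pairs. Fhl1 and Fhl2 lie above 0 on all 4 arrays, while Pdlim5 feature 712 lies above 0 on both arrays with Cy5 on high salt and below 0 on both with Cy3.

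Pdlim5, the Z-disc adaptor, gave unlike values in its 2 clones, and in 1 of them the sign differed between the dye orientations. Feature 712 stood at -0.15 and -0.80 on arrays 1 and 2 and at 0.59 and 1.33 on arrays 3 and 4. It was thus below 0 wherever Cy3 was on the high-salt RNA and above 0 wherever Cy5 was. Its mean over pairs was 0.23 ± 0.37 (SD, n = 3 pairs), and with arrays 1 and 2 turned, when all 4 arrays read above 0, it was 0.60 ± 0.46. Pair 2, the same 2 mice, read 1.33 on array 4 and -0.80 on array 2, a gap of 2.13, and 99.5% of clones had a smaller one. The part of the dye in the values of this clone was not tested.

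The other Pdlim5 clone, feature 13856, stayed near 0. It stood at -0.30, 0.09, 0.08 and 0.01 on arrays 1 to 4, with array 1 the only value below 0. Its mean was -0.06 ± 0.21 (SD, n = 3 pairs), and its values on arrays 4 and 2 differed by -0.08. Turning arrays 1 and 2 gave a mean of 0.11 ± 0.17.

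The 2 Pdlim5 clones differed most where feature 712 was extreme. Feature 712 minus feature 13856 was 0.15, -0.89, 0.51 and 1.32 on arrays 1 to 4. Their means lay 0.29 apart. Among the 1870 genes with exactly 2 clones, 89.4% had a smaller gap between clone means (median 0.09), and 99.1% had a smaller gap on array 4 (median 0.16). Which part of the Pdlim5 transcript each clone covers was not used here.

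As a gene, with both clones averaged, Pdlim5 stood at 0.09 ± 0.28 (SD, n = 3 pairs). This value changed with a single pair or array. It was 0.24 without pair 1, 0.06 without pair 2 and -0.03 without pair 3. It was 0.26 with pair 2 taken from array 4 and -0.08 with pair 2 taken from array 2. It was 0.36 ± 0.15 with arrays 1 and 2 turned.

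**Figure D2:**
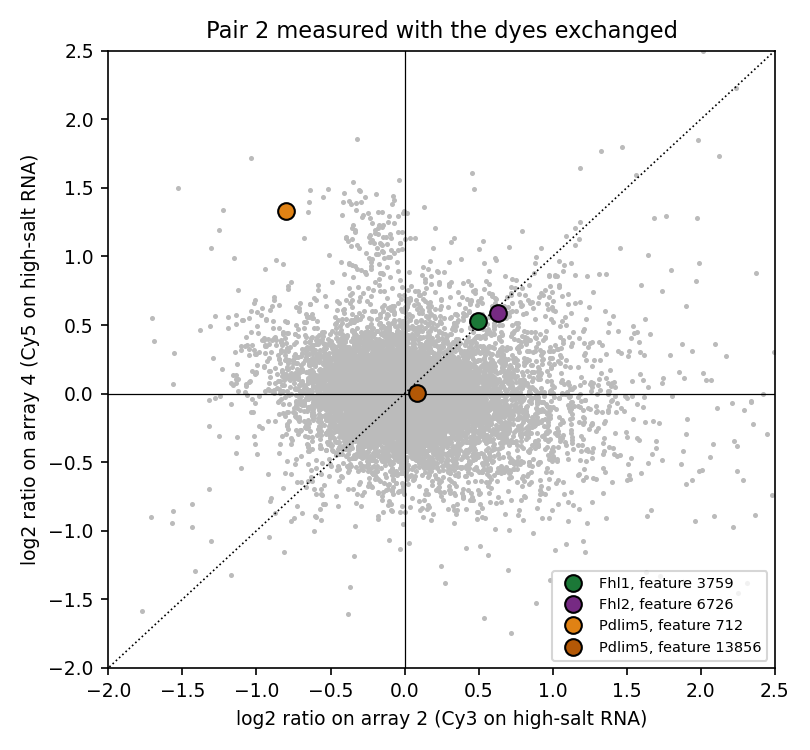
Log2 ratio on array 4 (vertical, Cy5 on high-salt RNA) against array 2 (horizontal, Cy3 on high-salt RNA) for the same pair of mice, with all clones in grey and the dotted line marking equal values; 23 clones lie outside the axes. As deposited, Fhl1 at 0.53 and 0.50 and Fhl2 at 0.59 and 0.63 lie close to the line. Pdlim5 feature 712 at 1.33 and -0.80 lies far from it.

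By mean ratio as deposited Fhl2 was highest, Fhl1 next and Pdlim5 lowest, and with arrays 1 and 2 turned the order was the reverse, at 0.36 for Pdlim5, 0.08 for Fhl1 and -0.24 for Fhl2. As deposited the steps were not larger than the spread between pairs in 2 of the 3 comparisons. Fhl2 minus Fhl1 was 0.89, 0.10 and -0.04 in pairs 1 to 3, a mean of 0.31 ± 0.50 (SD, n = 3 pairs). Fhl1 minus Pdlim5 was 0.40, 0.36 and 0.06, a mean of 0.27 ± 0.18. Fhl2 minus Pdlim5 was 1.28, 0.45 and 0.02, a mean of 0.59 ± 0.64. Pair 1 carried most of the lead of Fhl2, and in pair 3 the 3 genes lay within 0.06 of each other.

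Of the 4 clones 2, those of Fhl1 and Fhl2, were above 0 on all 4 arrays. Of all clones 6.65% were. Feature 712 of Pdlim5 was below 0 on both arrays with Cy3 on high salt and above 0 on both with Cy5, a pattern found in 13.0% of all clones. The genes were chosen on these ratios, so nothing is read from the first count.

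The 4 clones were printed in different blocks of the slide, numbers 7 for Fhl1, 13 for Fhl2 and 2 and 26 for Pdlim5. The 504 to 515 other clones in these blocks had medians between -0.02 and 0.02 on every array. Centring each block on its median left Fhl2 at 0.67, Fhl1 at 0.36 and Pdlim5 at 0.09.

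**Figure D3:**
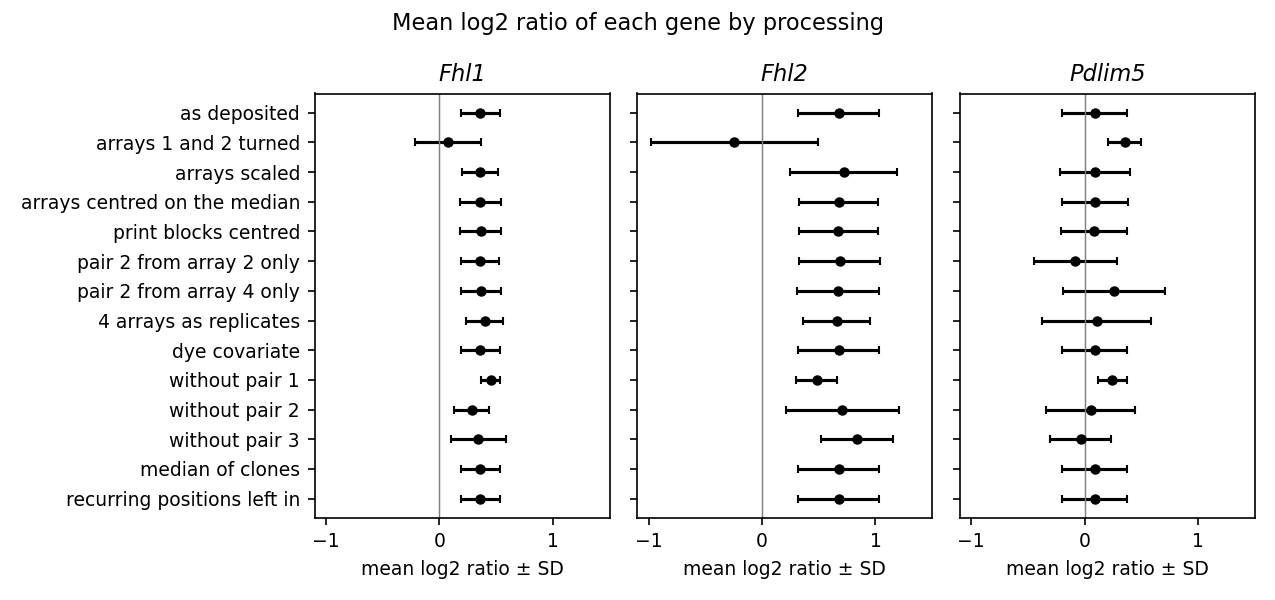
Mean log2 ratio (horizontal axis, bars SD over the pairs or arrays used) of Fhl1, Fhl2 and Pdlim5 under each processing choice. Turning arrays 1 and 2 moves Fhl2 to -0.24 and Fhl1 to 0.08, and the Pdlim5 mean changes sign with the array used for pair 2 and without pair 3.

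The genes with the most similar profile were found by the root mean square difference over the 4 arrays, among all other genes. Signs and orders that they share with a member follow from this choice, and nothing is read from them. For Fhl1 the 5 closest were Ptgfrn, a tetraspanin-associated membrane protein, at a difference of 0.08, the secreted glycoprotein Fstl1 at 0.10, Iah1 at 0.11, and cyclin A2 (Ccna2) and the replication factor Pclaf, both at 0.12. Ptgfrn stood at 0.16, 0.49, 0.54 and 0.58 on arrays 1 to 4, and was lowest in pair 1, as Fhl1 was.

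For Fhl2 the closest genes lay further away, at 0.19 to 0.21. They were Pcolce, an enhancer of procollagen processing, the intermediate filament Vim, the myosin light chain Myl6, the membrane-binding protein Anxa2 and the small GTPase Rab11b. Vim stood at 1.00, 0.82, 0.58 and 0.86 on arrays 1 to 4, and Pcolce at 1.36, 0.79, 0.39 and 0.41. Both were highest on array 1 and lowest on array 3, as Fhl2 was, whereas Anxa2 was highest on array 4, at 0.70.

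For Pdlim5, as the average of its 2 unlike clones, they were the 14-3-3 protein Ywhah at 0.09, and Bzw1, Nudt21, Slc2a2 and Pcsk4 at 0.12 to 0.13. Each of these 5 genes was above 0 on arrays 3 and 4 and below 0 on arrays 1 and 2. Ywhah, for example, stood at -0.33, -0.32, 0.36 and 0.54 on arrays 1 to 4.

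Other muscle LIM genes were read from a list. Of its 17 genes 8 were on the arrays, and Fhl3, Csrp1, Csrp3, Ldb3 and Nrap were among those not analysed here. None of the 8 passed limma's test at an adjusted p under 0.05, as for 0.00% of all genes and 0.00% of all clones. Unadjusted, 3 of the 8 had a limma p under 0.05, against 2.81% of all genes that were higher at that level and 2.63% that were lower. By mean 7 of the 8 were above 0, with a median of 0.20, against 49.8% of all genes above 0 with a median of -0.00026. Turning arrays 1 and 2 left 1 of the 8 above 0, with a median of -0.14, against 46.7% of all genes.

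Among the PDZ-LIM relatives of Pdlim5, Pdlim7, an adaptor of actin filaments, stood at 1.43, 0.77, -0.56 and 0.72 on arrays 1 to 4, with pair 3 opposite to pairs 1 and 2 and a mean of 0.54 ± 1.01 (SD, n = 3 pairs). Pdlim2 was above 0 on every array, at 0.66, 0.32, 0.19 and 0.13, with a mean of 0.36 ± 0.26. Pdlim1 stood at 0.13 ± 0.29, with its 3 clones at 0.23, 0.13 and 0.02. With arrays 1 and 2 turned the means were -0.67 for Pdlim7, -0.19 for Pdlim2 and -0.08 for Pdlim1, so all 3 changed sign. Of all clones 13.0%, among them Pdlim5 feature 712, were below 0 on arrays 1 and 2 and above 0 on arrays 3 and 4. None of the 3 PDZ-LIM relatives measured had that pattern, and neither did Pdlim5 feature 13856. Nothing is read from this count.

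Lims1 and Lims2, the PINCH proteins that join integrin-linked kinase at adhesions, had means of opposite sign under either reading. Lims2 stood at 0.85, 0.60, 0.36 and 0.03 on arrays 1 to 4, above 0 on each, with a mean of 0.51 ± 0.30 (SD, n = 3 pairs). Lims1 stood at -0.53, -0.88, 0.38 and 0.02, with a mean of -0.19 ± 0.50 and the same signs by dye as Pdlim5 feature 712. Turned, the means were -0.26 for Lims2 and 0.45 for Lims1. Csrp2, a cysteine- and glycine-rich LIM protein, was at 0.28 ± 0.18, the actin-binding Lasp1 at 0.07 ± 0.36 and Lmcd1, a LIM protein of cardiac muscle, at 0.01 ± 0.067. Their turned means were -0.02, -0.25 and -0.09. Lasp1 rested on unlike clones, 1 of which read 2.45 on array 2 and -0.30 on array 4 for the same mice. Of the 8 genes 2, Pdlim2 and Lims2, were above 0 on all 4 arrays, against 7.01% of all genes, and 0 were below 0 on all 4, against 7.75%.

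**Figure D4:**
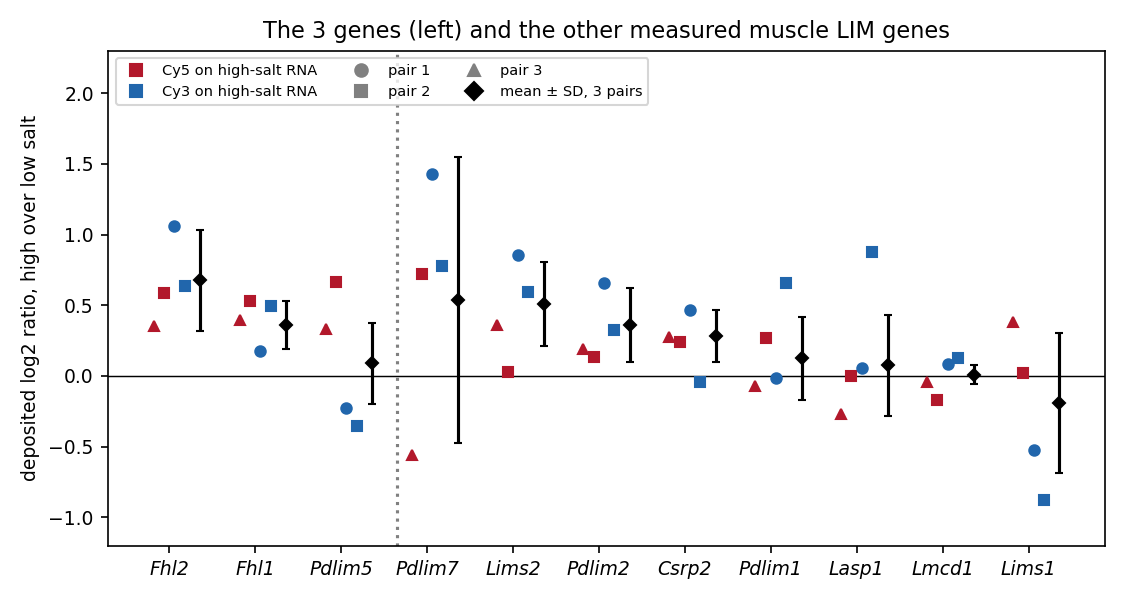
Deposited log2 ratio (vertical axis, read as high over low salt) of Fhl2, Fhl1 and Pdlim5 (left of the dotted line) and of the 8 other measured muscle LIM genes, by array, with colour for the dye on high-salt RNA and shape for the pair; diamonds with bars are the mean ± SD of 3 pairs. Fhl2, Fhl1, Lims2 and Pdlim2 lie above 0 on all 4 arrays, and Lims1 and Pdlim5 lie above 0 with Cy5 on high salt and below 0 with Cy3.

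LIM genes of adhesions and the actin cytoskeleton had a lower median, 0.10 over 17 measured genes of 24, with 11 above 0, and -0.21 with arrays 1 and 2 turned. Ajuba, an adaptor between adhesions and the nucleus, stood at 0.45 ± 0.49 (SD, n = 3 pairs) and Limk1, the kinase that inactivates cofilin, at 0.10 ± 0.080, both above 0 on all 4 arrays. Crip2, a small cysteine-rich LIM protein, was below 0 on all 4, at -0.20 ± 0.20. The turned means were -0.43 for Ajuba, 0.04 for Limk1 and 0.10 for Crip2. LIM proteins of the nucleus and their cofactors had a median of -0.0040 over 11 of 17 genes (-0.03 turned). Their means lay between -0.15 for Lhx3 and 0.07 for Isl1. The Isl1 mean averages unlike arrays, at -0.39 on array 2 and 1.13 on array 4 for the same mice. Lhx3 stood at -0.51 on array 3. Turned, the means were -0.24 for Lhx3 and 0.26 for Isl1. None passed the test in either list, and 0 of the 17 and 0 of the 11 had an unadjusted limma p under 0.05. Of all genes 2.81% were higher and 2.63% lower at that level.

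The titin and Z-disc partners of these proteins were covered in part, at 15 of 31 genes. Their median was 0.08, with 10 above 0, and 0.00097 with arrays 1 and 2 turned. Ttn itself stood at 0.09, 0.26, 0.01 and -0.06 on arrays 1 to 4, a mean of 0.07, and Actn2, the Z-disc alpha-actinin, at -0.01. Itgb1, the integrin beta chain that anchors the sarcomere to matrix, was at 0.19, 0.17, 0.18 and 0.22 on arrays 1 to 4, with a mean of 0.19 ± 0.0087 (SD, n = 3 pairs) from 2 clones. Actn1, at 0.18 ± 0.15, and Parva, a partner of integrin-linked kinase at 0.23 ± 0.18, were also above 0 on all 4 arrays. Turned, Ttn stood at -0.08, Actn2 at 0.00097, Itgb1 at 0.0027, Actn1 at -0.13 and Parva at 0.12. None of the 15 passed, and 1 had an unadjusted limma p under 0.05, against 2.81% of all genes higher and 2.63% lower.

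Signalling partners had a median of -0.01 over 14 of 27 genes, and of 0.02 with arrays 1 and 2 turned. Id2, an inhibitor of helix-loop-helix factors that binds Pdlim5, was the only one above 0 on all 4 arrays, at 0.36, 0.53, 0.21 and 0.05, with a mean of 0.29 ± 0.078 (SD, n = 3 pairs) and -0.13 turned. Ppp3ca and Ppp3cb, the calcineurin catalytic subunits that Fhl2 restrains, stood at 0.03 and -0.03. Map2k1 and Map2k2, kinases of the pathway that Fhl1 scaffolds, stood at 0.03 and -0.07, but these means average opposite signs. Map2k1 was at -0.27, -0.05, 0.27 and 0.23 on arrays 1 to 4, and Map2k2 at 0.28, 0.29, -0.42 and -0.42. Turned, Map2k1 stood at 0.23, Map2k2 at -0.35, Ppp3ca at 0.05 and Ppp3cb at -0.0043. None of the 14 passed, and 1 had an unadjusted limma p under 0.05, against 2.81% of all genes higher and 2.63% lower.

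The table holds ratios and no levels, so the tissue could not be checked against its markers, and in these tissue samples a change in cell number and a change in RNA per cell cannot be told apart. Cardiomyocyte markers were measured for 2 of 11 genes, Ryr2 at 0.05 and Atp2a2 at -0.15, and Tpm1 at -0.25 and Tpm2 at -0.05 were the 2 thick- and thin-filament genes measured of 18. By mean, fibroblast markers lay above 0, as Fhl1 and Fhl2 did. Of 12 listed 10 were measured, all 10 had means above 0, and 6 were above 0 on all 4 arrays. Their median was 0.40, and by pair it was 0.34, 0.37 and 0.47 in pairs 1 to 3. The means ran from 0.06 for Col1a1 to 1.04 for Col3a1. Col1a1 stood at -0.02, -0.66, 0.23 and 0.58 on arrays 1 to 4, and Col3a1 at 1.06, 1.26, 0.84 and 1.18. With arrays 1 and 2 turned, Col1a1 stood at 0.29 and Col3a1 at -0.09. Of all genes 49.8% had means above 0 and 7.01% were above 0 on all 4 arrays. Unadjusted, 5 of the 10 had a limma p under 0.05, against 2.81% of all genes that were higher at that level. After adjustment 0 passed. Vim and Fstl1, named above as close to Fhl2 and Fhl1, belong to this list. Turning arrays 1 and 2 left 5 of the 10 above 0, with a median of -0.00070. Smooth muscle markers had a median of 0.13 over 5 of 11 genes, and the skeletal muscle markers Actn3 and Mylpf, 2 of 10, stood at 0.09 and -0.06. Endothelial markers had a median of 0.14 over 6 of 10 genes and leukocyte markers -0.39 over 3 of 11. The leukocyte genes went apart, with S100a9 at -1.42 and below 0 on all 4 arrays and Lyz2 at 0.45 and above 0 on all 4. Of the 3, 2 had an unadjusted limma p under 0.05, against 2.81% of all genes higher and 2.63% lower. Under the same turn the medians were -0.16 for smooth muscle, -0.06 for endothelium, 0.16 for leukocytes and 0.13 for cardiomyocytes. Tpm1 then stood at 0.08, Tpm2 at -0.16, Actn3 at 0.03 and Mylpf at 0.05. The part of these cell types in the Fhl1 and Fhl2 ratios was not tested.

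Over the whole table limma called 0 of 8106 genes and 0 of 16471 clones, with smallest adjusted p of 0.64 and 0.43. At an unadjusted p under 0.05 there were 441 genes and 858 clones. Without pair 2 there were 145 genes and 309 clones, and without pair 3 there were 851 genes and 1736 clones. Turning arrays 1 and 2 gave 1683 genes and 3096 clones.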

How the data were processed

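The study measured 6 ventricle samples in 3 pairs on 4 printed 2-colour cDNA arrays, with dyes incorporated during reverse transcription from oligo(dT), per the labels' protocols. For 17207 features the authors deposited a log ratio on each array, which was read as log2. The sources used here give neither their base nor the background correction, normalization or direction, and base 2 is an assumption. Medians over the clones were 0.0089, -0.0012, -0.0053 and -0.0085 on arrays 1 to 4. There were no intensities, so no filter on dim spots could be set. Precision is limited by the small number of arrays, among other things.

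Of 17664 features 17207 had values, on all 4 arrays. Left out were 736 at 23 print positions that carry no gene name in any of the 32 blocks, a choice settled after their values were seen. Symbols came from the platform annotation (1 symbol for 12563 features, several for 412, none for 4689). Gene IDs of 12555 were found in RefSeq, GRCm38.p6. Clones of a gene were averaged. Arrays 2 and 4 were averaged as pair 2, and limma 3.58.1 (R 4.3.3) set the 3 pair values against 0 by lmFit and eBayes, with Benjamini-Hochberg adjustment at 0.05. The script was tested on simulated data with shifts far larger than their noise. That test does not show whether smaller changes could be called. The labels do not say that the pairs were formed by litter or day.

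The members, lists and tests were chosen with earlier results of these data known. Named are all clones of the 3 genes, the 5 genes nearest to each, every measured muscle LIM gene and, of the other non-marker lists, those with 1 sign on all 4 arrays (at most 6 each way). Ttn, Actn2, Lhx3, Isl1, Col1a1, Col3a1, the calcineurin and Map2k genes and the tropomyosins were named after their values were seen. Alternatives changed the direction of arrays 1 and 2, scale (to an equal median absolute value, since the planned limma function gave no values on log ratios), centring, print blocks, the array for pair 2, the replicate unit, a dye covariate, each pair in turn, the clone average and the recurring positions.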

Additional observations from a re-analysis of the deposited data

Results flagged for a closer look

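As deposited, Pdlim5 feature 712 had opposite signs in the dye orientations. With arrays 1 and 2 turned it was above 0 on all 4 arrays, with a mean of 0.60. On both arrays with Cy5 on high-salt RNA it was above 0, and on both with Cy3 it was below 0, and the orientation means differed by 1.43, more than in 97.7% of clones. The difference was not tested, and pairs 1 and 3 differ between the orientations as well as the dye. The other Pdlim5 clone differed by 0.15 between the orientations. For 35 genes and clones named here the farthest of the 4 arrays was set against Dixon's critical ratio for 4 values, and 0 exceeded it. Arrays 2 and 4 hold the same mice, so the 4 values are not independent. The ratio looks for 1 far array and does not show a split by dye such as that of feature 712. Ttn, Isl1, the tropomyosins and the Map2k genes were not among the 35.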

How the results depend on the processing

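With arrays 1 and 2 turned, the mean log2 ratio was 0.078 for Fhl1 and -0.24 for Fhl2, each further from the deposited reading than 1 SD between pairs. The other alternatives moved the 3 gene means by less than 1 SD, 12 of 13 settings each for Fhl1 and Fhl2 and 13 of 13 for Pdlim5, whose SD is large against its mean. These counts include the dye covariate, the median of clones and the recurring positions, which by construction could not change the 3 means. Without 1 pair the means ran from 0.28 to 0.45 for Fhl1, from 0.48 to 0.84 for Fhl2 and from -0.03 to 0.24 for Pdlim5. Leaving out pair 1 or pair 3 also unbalances the dyes. limma called 0 genes and 0 clones under every setting run. At an unadjusted p under 0.05 the dye covariate gave 1188 genes and 2145 clones, against 441 and 858 without it, and the cause was not tested. With no intensities, the effect of signal over background could not be examined, and the planned filter on low values was not run.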

Other observations

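As deposited, signs that follow the dye were the commonest among all clones. Values above 0 on arrays 1 and 2 and below 0 on arrays 3 and 4 were found in 16.8% of clones, and the opposite pattern, that of Pdlim5 feature 712, in 13.0%. Values above 0 on all 4 arrays, as in Fhl1 and Fhl2, were found in 6.65% and values below 0 on all 4 in 6.78%.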
